A study of Oryza sativa with 6 samples.

Results

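The genes described here make, sense and relay ethylene in the young uppermost internode of rice (Oryza sativa): the ACC synthases ACS1 and ACS2, the ACC oxidase ACO1, the receptors ERS1, ERS2 and ETR2, the membrane protein EIN2, and the transcription factor EIL1. They were chosen by name, as every probe set with exactly 1 gene whose symbol or synonyms, without a leading Os, held one of 9 listed names. Of these names 8 matched, and the ninth, ACO3, was not analysed here. EIL1 matched a pair of gene entries that are immediate neighbours in gene order, EIL1A and EIL1B, which gave 11 probe sets of 9 genes, out of 22436 probe sets of 17905 genes. The samples were 3 arrays of coi1-13, called a mutant in the labels, and 3 arrays of Nipponbare, the wild type. The labels number them as biological replicates and give no plant age, no treatment and no description of the coi1-13 lesion. COI1 is the F-box subunit of the jasmonate receptor, and the comparison asks how ethylene transcripts differ between these genotypes. All values are log2 signals of Affymetrix rice arrays, so that a difference of 1 is a 2-fold change, and the signals of different probe sets are not comparable with each other.

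Ethylene is a gaseous hormone made from methionine by way of S-adenosylmethionine, which ACC synthase turns into ACC and ACC oxidase turns into ethylene. Its receptors sit in the endoplasmic reticulum membrane and repress signalling until ethylene binds them, after which EIN2 passes the signal on to the EIN3/EIL transcription factors. In rice, ethylene is known for promoting internode elongation under water and for inhibiting root growth. In Arabidopsis, JAZ proteins, the targets of COI1, bind EIN3 and EIL1 and repress them.

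The clearest differences lay in the last step of ethylene synthesis and in the transcription factor EIL1A. The ACC oxidase probe set fell 1.35-fold in coi1-13 and the brighter EIL1A probe set rose 1.37-fold, each with groups that did not overlap. ERS1 and EIL1B also passed as higher, by 1.13-fold and 1.62-fold, but both calls were lost under several other settings. In all, 4 of the 11 probe sets passed (limma, Benjamini-Hochberg adjusted p under 0.05 over the whole table), 3 higher and 1 lower. That is 36.4% of them, against 35.9% of all 34355 tested probe sets (16.5% higher and 19.4% lower), so the share is near the background and is no result about these genes as a set. The 2 groups of 3 did not overlap for 6 of the 11 (54.5%), against 47.5% of all tested. None of the 4 reached a 2-fold change, as 5.45% of tested probe sets did. The median difference of the 11, coi1-13 minus wild type, was 0.19, against -0.01 over all tested probe sets. Of the 11 differences 8 were above 0, against 48.8% over all tested. ACS1, which entered the test through its coi1-13 values, is among these 8 and among the 6 without overlap. ETR2 and EIL1A each count with a pair of probe sets. At the dim end the median of all tested probe sets was itself above 0, at 0.18 below a mean of 5.5. These figures are therefore no result about the genes as a set.

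**Figure D1:**
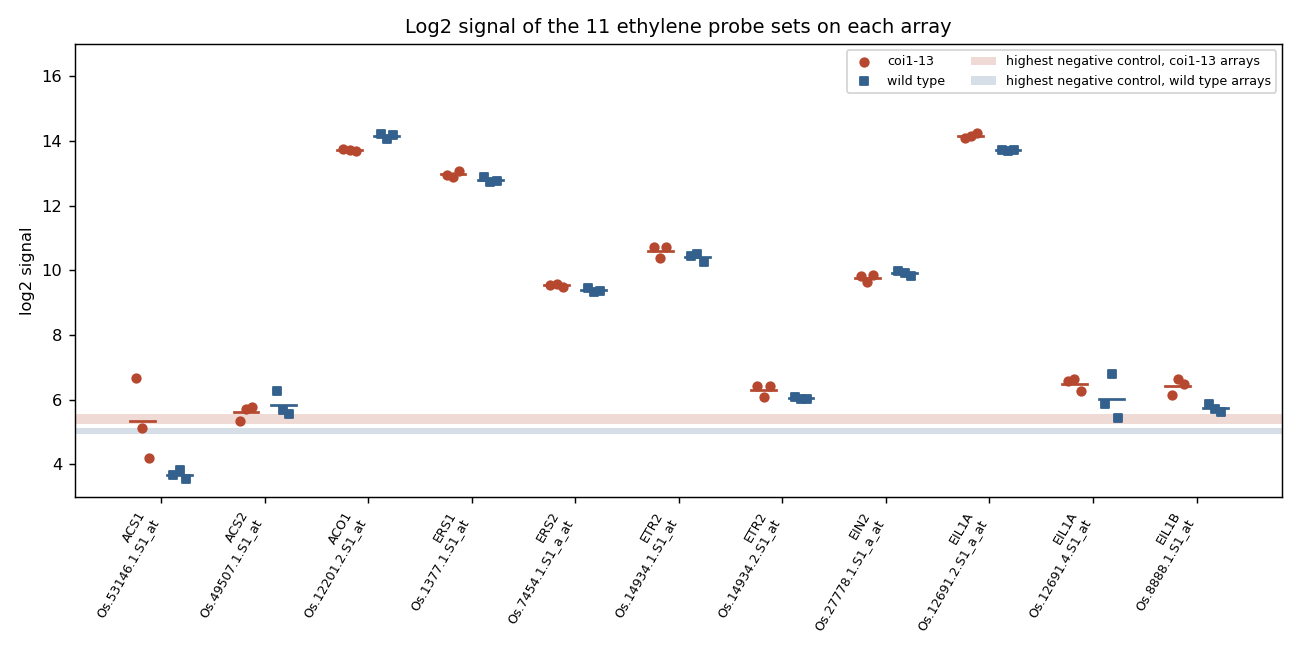
Log2 signal (vertical axis) of the 11 ethylene probe sets on each array, with 3 coi1-13 arrays (circles) left of 3 wild type arrays (squares), a line at each group mean, and bands for the range of the highest negative control over the arrays of each genotype. ACO1 and the brighter EIL1A probe set stand near 14, while ACS2, EIL1B and the dimmer ETR2 and EIL1A probe sets stand near or just above the bands. ACS1 stands above the band of its genotype on coi1-13 replicate 1 and below the band of its genotype on the other arrays.

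ACO1 encodes the enzyme of the last step, from ACC to ethylene. Its probe set (gene ID 4347225) read 13.75, 13.71 and 13.70 on the coi1-13 arrays, against 14.21, 14.05 and 14.20 on the wild type arrays. All coi1-13 values lay below all wild type values, and the gap between the groups was wider than the spread within either. The group means were 13.72 ± 0.03 in coi1-13 and 14.15 ± 0.09 in wild type (SD, n = 3 each), a difference of -0.43 ± 0.04 (SE) with a 95% interval from -0.53 to -0.33 and a limma adjusted p of 2.96e-05. Over the 12 alternative settings the difference ran from -0.55 to -0.40 and passed under each. In size it was ordinary for the whole array, where 30% of tested probe sets differed by more. Among the 889 probe sets as bright as this one (a mean of at least 13), the median size of the difference was 0.15.

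The ACC synthases catalyse the step before, usually taken as the rate-limiting one of ethylene synthesis. ACS1 (gene ID 4333976) read 6.68, 5.12 and 4.21 on the coi1-13 arrays, against 3.66, 3.84 and 3.57 on the wild type arrays. The coi1-13 values were all higher but spread widely, and only replicate 1 of coi1-13 exceeded the highest of the negative controls on its array, while no wild type array did. It entered the test through its coi1-13 values, since its wild type mean lay below the lowest mean tested, 4.37. Its means were 5.34 ± 1.25 in coi1-13 and 3.69 ± 0.14 in wild type (SD, n = 3 each), and the difference of 1.65 ± 0.65 (SE) did not pass (limma adjusted p = 0.0747). Without coi1-13 replicate 3, the dimmest of the 3, ACS1 did pass, with a difference of 2.21 (limma adjusted p = 0.0209). Without coi1-13 replicate 1, the brightest, it lay below the brightness filter and was not tested, and the plain difference of the remaining means was 0.98.

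ACS2 (gene ID 4336750) read 5.34, 5.72 and 5.79 on the coi1-13 arrays, against 6.27, 5.67 and 5.55 on the wild type arrays. The groups overlapped, with the highest value on wild type replicate 1. The difference of -0.21 ± 0.30 (SE) did not pass (limma adjusted p = 0.64), and its 95% interval, from -0.88 to 0.46, leaves room for a change in either direction. Without wild type replicate 1 it was 0.01.

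Ethylene receptors act as repressors of the response, so that more receptor is known to lower sensitivity. ERS1 and ERS2 belong to the receptor subfamily with a histidine kinase domain that keeps its conserved residues, and ETR2 to the subfamily in which that domain has diverged. ERS1 (gene ID 4333832) read 12.95, 12.88 and 13.07 on the coi1-13 arrays, against 12.89, 12.74 and 12.75 on the wild type arrays. The groups overlapped narrowly, wild type replicate 1 lying just above coi1-13 replicate 2. With means of 12.97 ± 0.10 in coi1-13 and 12.79 ± 0.09 in wild type (SD, n = 3 each), the difference of 0.18 ± 0.06 (SE) passed (limma adjusted p = 0.0307). That call was lost under 7 of the 12 alternatives, with adjusted p-values up to 0.432 under median centring, where the difference was 0.06. It was lost without coi1-13 replicate 1 or 3 (differences of 0.19 and 0.12, limma adjusted p = 0.0532 and 0.101) and without wild type replicate 2 or 3 (0.15 and 0.15, limma adjusted p = 0.103 and 0.102).

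ERS2 (gene ID 4337850) read 9.56, 9.57 and 9.49 on the coi1-13 arrays, against 9.44, 9.33 and 9.37 on the wild type arrays. These groups did not overlap, yet the difference of 0.16 ± 0.06 (SE) missed the threshold (limma adjusted p = 0.0672) and did so under each of the 12 alternatives. ERS1 passed and ERS2 did not although their differences and 95% intervals were nearly alike, 0.05 to 0.30 for ERS1 and 0.02 to 0.29 for ERS2. Whether the differences of these receptor genes differ from each other was not tested.

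ETR2 (gene ID 4335058) was read by a pair of probe sets. The brighter read 10.72, 10.38 and 10.72 on the coi1-13 arrays, against 10.45, 10.52 and 10.26 on the wild type arrays, and the dimmer 6.42, 6.10 and 6.44 on the coi1-13 arrays, against 6.07, 6.02 and 6.03 on the wild type arrays. On both, coi1-13 replicate 2 lay below the other coi1-13 arrays, which read almost alike, and for the brighter it fell among the wild type values. Neither difference passed: 0.19 ± 0.10 (SE) for the brighter (limma adjusted p = 0.151) and 0.28 ± 0.21 (SE) for the dimmer (limma adjusted p = 0.362). Without coi1-13 replicate 2 the brighter passed, with a difference of 0.31 (limma adjusted p = 0.0135), while it was 0.12 without wild type replicate 3 (limma adjusted p = 0.419) and 0.07 with each array centred on its median (limma adjusted p = 0.571).

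EIN2 is the central membrane protein of the pathway, known in rice also as MHZ7, whose loss makes seedlings insensitive to ethylene. Its probe set (gene ID 4342431) read 9.83, 9.64 and 9.86 on the coi1-13 arrays, against 9.97, 9.93 and 9.82 on the wild type arrays. The groups overlapped, and the difference of -0.13 ± 0.07 (SE) did not pass (limma adjusted p = 0.196). With each array centred on its median it passed as lower (-0.25, limma adjusted p = 0.0229), and without coi1-13 replicate 2 it was -0.06 (limma adjusted p = 0.533). Median centring moved the median difference of all tested probe sets to -0.13, against -0.01 on the deposited scale. Centring lowers the differences by the same amount, so relative to that median EIN2 stood at -0.12 and ERS1 at 0.19 under both scalings. Of these scalings, ERS1 passed on the deposited one and EIN2 on the centred one. The ERS1 call was also lost under settings that leave 0 in place, such as without the variance trend (limma adjusted p = 0.151).

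**Figure D2:**
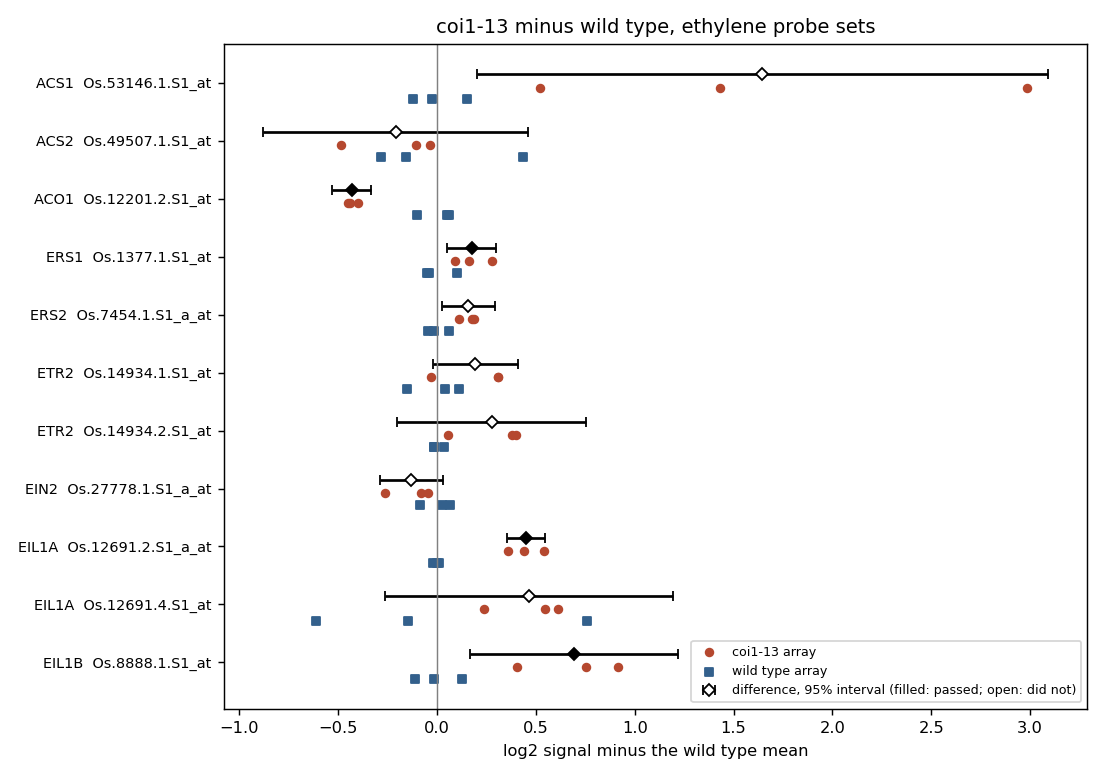
Log2 signal relative to the wild type mean of each probe set (horizontal axis), for 3 coi1-13 arrays (circles) and 3 wild type arrays (squares), with the difference coi1-13 minus wild type and its 95% interval (diamonds, filled where the limma adjusted p was under 0.05). The intervals of ACO1 and the brighter EIL1A probe set are narrow and lie away from 0, while that of ACS1 runs from 0.20 to 3.09.

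EIL1 is the transcription factor that switches on ethylene response genes, and the entry EIL1A (gene ID 107276358) also carries the rice name MHZ6. The brighter EIL1A probe set read 14.08, 14.16 and 14.26 on the coi1-13 arrays, against 13.72, 13.70 and 13.73 on the wild type arrays. All coi1-13 values were higher, and the wild type arrays lay closer together than the coi1-13 arrays. The means were 14.17 ± 0.09 in coi1-13 and 13.72 ± 0.02 in wild type (SD, n = 3 each), a difference of 0.45 ± 0.04 (SE) with a 95% interval from 0.35 to 0.55 and a limma adjusted p of 1.75e-05. It passed under all 12 alternatives, with differences from 0.33 to 0.49. Of all tested probe sets, 28.5% differed by more.

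The dimmer EIL1A probe set read 6.58, 6.65 and 6.27 on the coi1-13 arrays, against 5.88, 6.79 and 5.42 on the wild type arrays. The wild type arrays were scattered, replicate 2 lying above every coi1-13 array. Its difference of 0.46 ± 0.33 (SE) was close in size to that of the brighter probe set but did not pass (limma adjusted p = 0.314), and it was 0.85 without wild type replicate 2 (limma adjusted p = 0.0413) but 0.16 without wild type replicate 3 (limma adjusted p = 0.744).

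EIL1B (gene ID 4332697) read 6.14, 6.65 and 6.49 on the coi1-13 arrays, against 5.86, 5.72 and 5.62 on the wild type arrays. The groups did not overlap, and all 6 values lay above the negative controls of their arrays. The means were 6.42 ± 0.26 in coi1-13 and 5.73 ± 0.12 in wild type (SD, n = 3 each), a difference of 0.69 ± 0.24 (SE), which is 1.62-fold, with a limma adjusted p of 0.0431. Of its 11 alternatives 9 ended the call, at adjusted p-values up to 0.147, which was reached without coi1-13 replicate 2. It was lost without coi1-13 replicate 2 or 3 and without any single wild type array, and kept without coi1-13 replicate 1 (0.84, limma adjusted p = 0.0332). Another 3 probe sets that match EIL1A or EIL1B were left out because each matches several genes, at most 3. Cross-hybridisation between EIL1A and EIL1B was not tested.

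**Figure D3:**
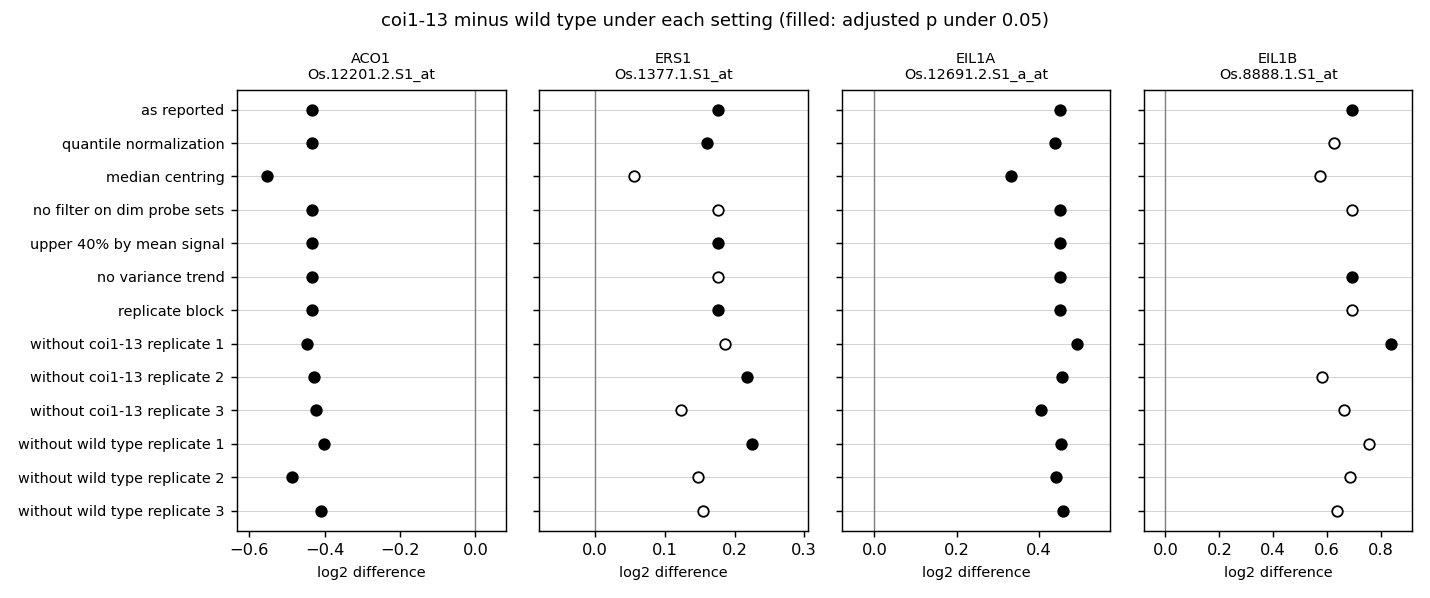
Log2 difference, coi1-13 minus wild type (horizontal axes, scaled for each panel), of the 4 probe sets that passed, as reported and under each alternative setting (rows; filled points have a limma adjusted p under 0.05). ACO1 and EIL1A are filled in every row, ERS1 and EIL1B in some only, and EIL1B was not tested among the upper 40% by signal.

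The share of all tested probe sets that passed differed with brightness, and the few members did not follow it evenly. Both members with a mean signal of at least 13 passed, and so did 60.1% of all tested probe sets there. The 1 member between 11 and 13, ERS1, passed, against 65.5% of all tested there. None of the 3 members between 9 and 11 passed, against 51.7% of all tested there, and 1 of the 4 between 5.5 and 7, against 17.1%. Below 5.5, where ACS1 lay, 7.02% passed and the median difference of all tested probe sets was 0.18. That median was 0.05 between 5.5 and 7, where ACS2, EIL1B and the dimmer ETR2 and EIL1A probe sets lay. The dim end of the scale stood higher on the coi1-13 arrays, where the highest negative control read 5.26 to 5.56, against 4.93 to 5.11 on the wild type arrays. The part of that shift in the differences of ACS1, ACS2, EIL1B and the dimmer ETR2 and EIL1A probe sets was not tested.

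**Figure D4:**
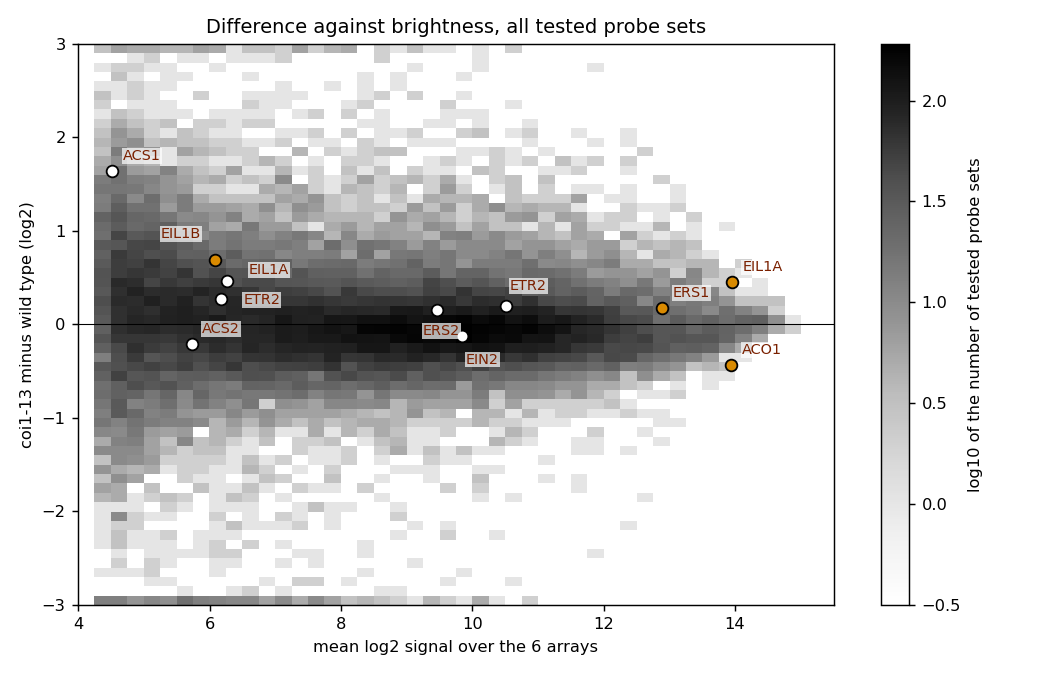
Difference coi1-13 minus wild type (vertical axis, log2; differences beyond 3 in size are counted in the outermost cells) against mean log2 signal over the 6 arrays (horizontal axis), shaded by the number of tested probe sets, with the 11 ethylene probe sets as points (orange where they passed). The scatter of all probe sets is widest at the dim end, where ACS1 lies, and narrow above 13, where ACO1 and EIL1A lie near its lower and upper edges.

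Other genes of the pathway came from 4 lists of 93 symbols, of which few are carried by this annotation. Tested probe sets were found for 10 genes, each represented by its brightest. Of these genes 4 were higher, 2 were lower and 4 did not pass, with a median difference of 0.02. Over all tested probe sets 35.9% passed, 16.5% higher and 19.4% lower. At mean signals of 9 to 11 that share was 51.7%, and at 11 to 13 it was 65.5%. Most of the 10 genes were that bright or brighter, so the counts are no result about them as a set. S-adenosylmethionine synthases supply the precursor of ACC, and METK3 fell by 0.54 (means of 7.20 ± 0.18 in coi1-13 and 7.74 ± 0.04 in wild type, SD, n = 3 each; limma adjusted p = 0.00801). SAM1 and SAM2, the bright synthase probe sets, differed by -0.04 and -0.14 and did not pass (limma adjusted p = 0.498 and 0.109), though both passed as lower with median centring (limma adjusted p = 0.00689 and 0.00303). A dim SAM2 probe set read 0.39, 0.90 and 0.16 on the coi1-13 arrays, against 3.96, 4.47 and 4.97 on the wild type arrays. It was below the brightness filter and not tested, and only 1 wild type array exceeded its negative controls.

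The methionine, or Yang, cycle recycles the sulphur that ACC synthase releases. MTK1, its methylthioribose kinase, read 12.48, 12.49 and 12.45 on the coi1-13 arrays, against 12.67, 12.62 and 12.65 on the wild type arrays, and it fell by 0.17 (limma adjusted p = 0.00254). The acireductone dioxygenases act near the end of the cycle. ARD1 rose on both of its probe sets, by 0.31 (limma adjusted p = 0.0012) and 0.91 (limma adjusted p = 0.016), and the brighter lost its call with median centring (0.19, limma adjusted p = 0.0605). The brighter ARD2 probe set rose by 0.34 (limma adjusted p = 0.00121), while the dimmer differed by -0.34 and did not pass (limma adjusted p = 0.255). The gene entries of ARD1 and ARD2 also carry heat shock factor names, so which transcript each probe set reads is uncertain. ARD4 rose by 0.16 (limma adjusted p = 0.0258), a call lost with median centring (0.04, limma adjusted p = 0.706), without the variance trend, without coi1-13 replicate 2 or 3 and without wild type replicate 1 or 3. IDI2, an isomerase of the cycle, did not pass on either probe set (differences of 0.07 and -0.34, limma adjusted p = 0.404 and 0.172).

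Of the other receptors, ETR3 read 10.12, 9.91 and 9.95 on the coi1-13 arrays, against 10.18, 10.08 and 10.03 on the wild type arrays, and its difference of -0.11 ± 0.07 (SE) did not pass (limma adjusted p = 0.272). ETR4 was below the negative controls on all 6 arrays and was not tested. EREBP1, an ethylene-responsive element binding factor, read 13.14 ± 0.02 in coi1-13 and 13.05 ± 0.02 in wild type (SD, n = 3 each) on its brighter probe set, a difference of 0.09 that passed (limma adjusted p = 0.0468) but lost its call under 11 alternatives and was -0.03 with median centring. Its dimmer probe set did not pass (limma adjusted p = 0.213), with wild type values from 1.32 to 5.16.

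**Figure D5:**
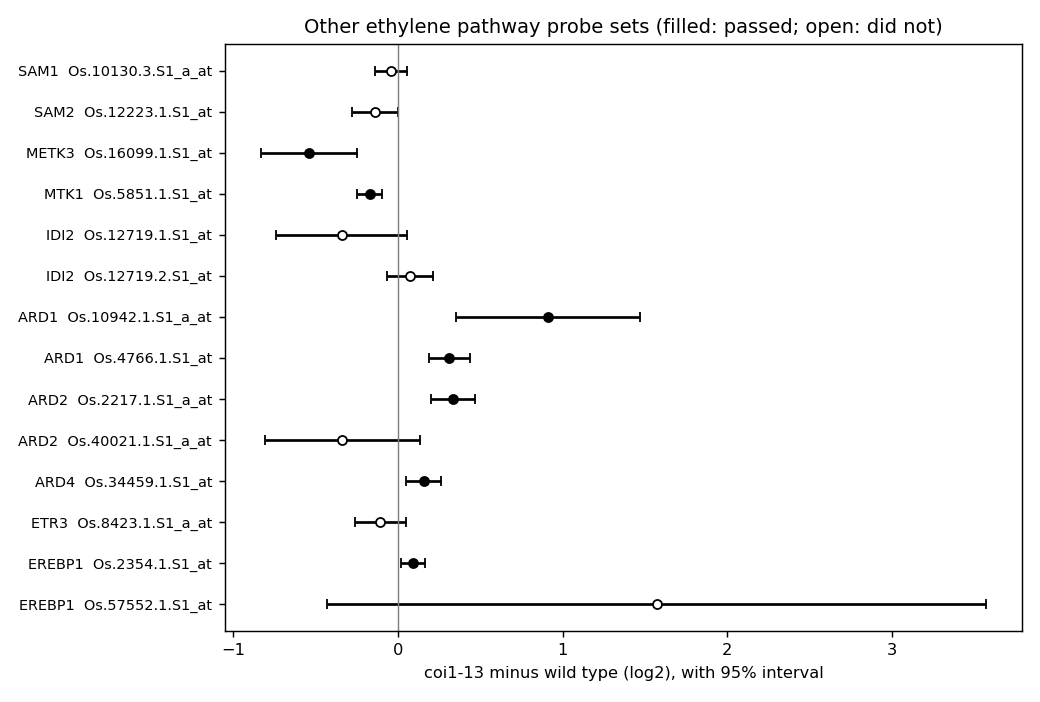
Difference coi1-13 minus wild type with its 95% interval (horizontal axis, log2) of the 14 tested probe sets from the other pathway lists, filled where the limma adjusted p was under 0.05. METK3 and MTK1 lie below 0 and the ARD1 probe sets above it, while the dimmer EREBP1 probe set has an interval from -0.43 to 3.57.

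Over the 6 arrays, the named probe sets that ran closest to ACO1, each taken relative to its own mean, were Trx14 (a thioredoxin gene), KIN5A (a kinesin gene) and ACLA-2 (an ATP-citrate lyase gene), at root mean square differences of 0.03, 0.04 and 0.04. Those closest to EIL1B were HAK7 (a potassium transporter gene), CYCD5-1 (a cyclin gene) and PP2C61 (a protein phosphatase gene), at 0.11, 0.12 and 0.12. These values describe the 6 arrays and carry no test.

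Markers of the tissue and its neighbours are given against the background of all tested probe sets, of which 35.9% passed, 16.5% higher and 19.4% lower. That share was 51.7% at mean signals of 9 to 11 and 65.5% at 11 to 13. Of 11 tested stem and internode marker genes, 10 were above the negative controls on all arrays, 8 were lower, 2 were higher and 1 did not pass, and their summed linear signal was 46351 to 47087 on the coi1-13 arrays, against 54280 to 56717 on the wild type arrays. Of 16 anther and panicle markers, 15 were above the negative controls on all 6 arrays, so anther and panicle transcripts were read in both genotypes. Among the 16, 12 were lower, 1 was higher and 3 did not pass. Their sums were 55293 to 58636 in coi1-13, against 68637 to 70127 in wild type. All 7 leaf markers were above the negative controls on all 6 arrays. Of these 3 were higher, 2 were lower and 2 did not pass, with sums of 71965 to 74359 in coi1-13, against 63215 to 64427 in wild type. Such sums weigh the brightest genes most. The median log2 difference was -0.18 for the stem and internode markers, -0.41 for the anther and panicle markers and -0.04 for the leaf markers. The mean log2 signal of the leaf markers was 12.86 to 12.87 in coi1-13, against 12.81 to 12.83 in wild type. No tested marker was at 0 on any array. The part of tissue makeup in the differences of ACO1, EIL1A and the other ethylene genes was not tested, and in these bulk samples fewer cells of a type and less RNA per cell cannot be told apart.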

How the data were processed

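The values the authors deposited were log2 signals, for 57381 probe sets on each of 6 arrays, made from biotin-labelled cRNA per the labels' protocols and with GCOS 1.4 per the submitters' processing notes. No further step is given in the sources used here. On the linear scale every array had the same trimmed mean, 500.07 with 2% cut from either tail, so all had been scaled to 1 level. Values of 0 are the floor.

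Genes were assigned by the platform annotation and named through the gene identifiers, symbols and synonyms of a RefSeq gene table (assembly ASM3414082v1), used for names and gene order alone. Of 57258 probe sets other than controls, 22436 had exactly 1 gene, 95 several and 34727 none. The brightest 60% (34355 probe sets, ranked by their mean) were fitted with limma 3.58.1 in R 4.3.3 (lmFit, eBayes with trend) on the deposited values, without a block, with Benjamini-Hochberg adjustment over all of them. All 11 ethylene probe sets passed that filter. A signal was taken as above background where it lay above all 33 negative controls of its array. The fit was tested on simulated data.

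The members, lists and alternatives were chosen with earlier results of these data known. The text names each member probe set, the genes of each pathway list, of which at most 6 that passed per list, and, for the largest rise and fall that passed, the 3 named probe sets nearest over the 6 arrays. Genes of the lists that did not pass were named after their values were seen. SK1 and SK2 were left out because those symbols belong to other genes here. Brightness ranges were added after the data were seen. The precision is limited by 3 arrays per group. Nothing in the labels beyond the words biological replicate says that samples came from separate plants.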

Additional observations from a re-analysis of the deposited data

How the results depend on the processing

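ACO1 and the brighter EIL1A probe set kept direction and call under all 12 alternatives. The number of member probe sets called higher, 3 as reported, was 1 under median centring and 1 without a filter on dim probe sets, and ran from 1 to 3 with 1 array left out. The number called lower, 1 as reported, was 2 under median centring and stayed 1 with any array left out. Of the other pathway genes, 4 were higher as reported, against 1 under median centring, 2 without the variance trend and 2 to 3 with 1 array left out, and 2 were lower as reported, against 4 under median centring. Over all tested probe sets, 3721 were higher under median centring, against 5679 as reported, and 9522 lower, against 6668, so that 28.1% of calls were higher there, against 46%. The 5679 and 6668 ran from 4917 to 5275 and from 5647 to 6123 with 1 array left out. Median centring lowers each difference by about the same amount, and it rests on dim probe sets. The array medians of 5.54 to 5.75 lay above but near the highest negative control of each array, 4.93 to 5.56. The median negative control read 1.84 to 2.75. The one member to change sign was ACS2, which ran from -0.3508 to 0.0089 with 1 array left out, the last without wild type replicate 1; the cause was not tested.

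Same-numbered arrays did not deviate together, with correlations of -0.003, 0.001 and 0 between their deviations from the group means, so the numbers were not taken as pairs. With the replicate number as a block, 5481 probe sets were higher and 6336 lower, 2 member probe sets were higher and 1 lower, and EIL1B kept its difference of 0.69 with a limma adjusted p of 0.0737.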
